A study of Mus musculus with 32 samples.

Results

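The genes described here are Atf4, 12 genes commonly listed as targets of its product, and the cytosolic aminoacyl-tRNA synthetases, followed in the ribosome footprints of mouse neural stem cells (NSCs) treated with IFN-β. There were 32 such genes among the 23035 genes of the footprint tables, and all 32 were found by their current or older symbol. They comprised 4 stress regulators (Atf4, Ddit3, Trib3 and Chac1), 6 enzymes of amino acid and one-carbon metabolism (Asns, Psat1, Phgdh, Psph, Shmt2 and Mthfd2), 3 transporter genes (Slc7a11, Slc7a5 and Slc3a2), 18 synthetase genes and Wars. Wars, the tryptophanyl-tRNA synthetase, is known as an interferon-induced gene and is described apart from the other 31.

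When the initiation factor eIF2-alpha is phosphorylated, general translation initiation falls, while ribosomes reach the main reading frame of Atf4 mRNA, which short upstream reading frames otherwise keep from translation. The ATF4 protein is a transcription factor that raises genes for amino acid synthesis and uptake, for the charging of tRNAs and, under lasting stress, for cell death, a program known as the integrated stress response. One of the kinases of eIF2-alpha, PKR, is itself encoded by an interferon-stimulated gene, Eif2ak2. Proliferating NSCs depend on serine, glycine and one-carbon units for nucleotide synthesis.

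The NSCs came from the ventricular-subventricular zone (vSVZ) of C57BL/6 mice aged 8 to 12 weeks and were grown ex vivo. They received vehicle or IFN-β for 2 h or for 14 h, and all cells, controls included, received cycloheximide for 5 min before lysis. Each of the 4 groups held 4 cultures, and each lysate gave 1 library of ribosome-protected mRNA fragments (footprints) and 1 of total RNA, 32 libraries in all. The replicate numbers are called cultures here (2, 3, 5 and 6 at 2 h, 1 to 4 at 14 h), since footprint libraries of the same number deviated together from their group means. As cultures from different mice were the replicates, p-values from fits without a block measure the spread between cultures and ignore this pairing. Those from fits with the culture number as a block measure how the response within a culture varied between cultures.

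Members whose promoter holds the core of the C/EBP-ATF response element (CARE), which ATF4 binds with a C/EBP partner, are shown first, because the results below are also given with and without it. The core was searched as TGATGNAA on both strands of windows from 250 bases before to 50 bases after the gene start (RefSeq, build GRCm38.p6). A window was at hand for 24 members and not for Slc7a5, Cars, Hars, Lars, Nars, Rars, Vars and Wars. The core stood in a window of 9 of these 24 members (37.5%), against 3.97% of all 32851 windows. The first share counts members, of which Psat1 had 2 windows, and the second counts windows. Each stretch is written 5′ to 3′ on the strand named, with the core in capitals.
Trib3, chr2:152344028-152344057, plus strand: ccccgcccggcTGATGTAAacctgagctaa
Chac1, chr2:119351038-119351067, minus strand: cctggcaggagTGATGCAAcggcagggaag
Asns, chr6:7693214-7693243, minus strand: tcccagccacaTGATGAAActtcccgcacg
Slc7a11, chr3:50443661-50443690, minus strand: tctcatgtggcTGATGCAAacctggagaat
Slc7a11, chr3:50443642-50443671, plus strand: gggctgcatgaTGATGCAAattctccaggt
Aars, chr8:111033840-111033869, minus strand: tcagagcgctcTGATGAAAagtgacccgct
Gars, chr6:55037960-55037989, minus strand: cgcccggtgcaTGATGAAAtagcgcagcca
Iars, chr13:49682126-49682155, minus strand: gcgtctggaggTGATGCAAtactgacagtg
Tars, chr15:11399655-11399684, plus strand: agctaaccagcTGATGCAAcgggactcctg
Yars, chr4:129189895-129189924, plus strand: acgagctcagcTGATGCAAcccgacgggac
In Asns the core began 23 bases before the start, and in Chac1 193 bases before it. In Trib3 (from base 14), Iars (from base 7), Yars (from base 3) and Aars (from base 9) it lay after the start, inside the first transcribed bases. A match is a run of letters and not a measured binding site.

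The core of the interferon-stimulated response element (ISRE) was searched as GAAA, any 2 bases and GAAA on both strands of the same windows. It stood in a window of 1 of the 24 members (4.17%) and in 3.44% of all windows. It is shown because the member that holds it, Qars, had the largest positive fold change among the synthetases at 14 h. The match began 199 bases before the Qars start.
Qars, chr9:108507796-108507825, minus strand: catgggcgtgGAAAGGGAAAgtgtttagca

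Footprint libraries held 4956144 to 9361609 counts at 2 h and 2956297 to 10505108 at 14 h, and total RNA libraries 3992402 to 7877753 and 1370008 to 2737111. Summed footprints of 9 NSC markers were 14248 to 17848 CPM (counts scaled to a common library size) in the libraries at 2 h and 10531 to 13311 at 14 h. Markers of endothelial cells summed to at most 0.431 CPM and those of oligodendrocytes to at most 19.9 CPM. The 6 microglial markers at 14 h summed to between 5.99 and 8.81 CPM in vehicle libraries and between 21.2 and 26.7 CPM in IFN-β libraries, where P2ry12 was the only one with enough counts to be tested and rose, and Aif1 and Cx3cr1 were at 0 in every library. The 3 ependymal markers summed to 18.8 to 26.2 CPM and 44.8 to 59.0 CPM at 14 h with vehicle and IFN-β, and of those tested only Foxj1 rose. The part of other cells in the results was not tested, and in bulk cultures fewer cells of a type and less RNA per cell cannot be told apart. At 2 h culture 3 stood apart with both treatments, as given below.

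The levels of the members in vehicle were compared as footprint CPM per kb of coding length, so that genes of different length could be set side by side. At 14 h Psat1, the aminotransferase of serine synthesis, was highest with 461 ± 21.8 CPM per kb (SD, n = 4). Slc7a5, the large neutral amino acid transporter LAT1, followed with 412 ± 13.2, and its heavy chain partner Slc3a2 with 320 ± 20.0. The next was Gars, the glycyl-tRNA synthetase, with 191 ± 7.22, the highest of the 18 synthetases, whose means ran from 21.5 to 191 with a median of 85.2 CPM per kb. Trib3, a pseudokinase induced by ATF4, was lowest with 9.04 ± 1.44, so that the highest and lowest means were 51.0-fold apart.

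At 2 h the same 4 genes led, Psat1 with 402 ± 52.1 CPM per kb, and Trib3 was again lowest with 1.53 ± 0.82. Of the 31 pairs of neighbours in the order of levels, 21 overlapped in the ranges of their libraries at 14 h and 27 at 2 h. The order of neighbours within each library was not compared. The libraries of the 2 times were counted in separate tables, the labels do not say whether an equal number at both times is 1 culture, and the levels were not tested against each other.

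**Figure D1:**
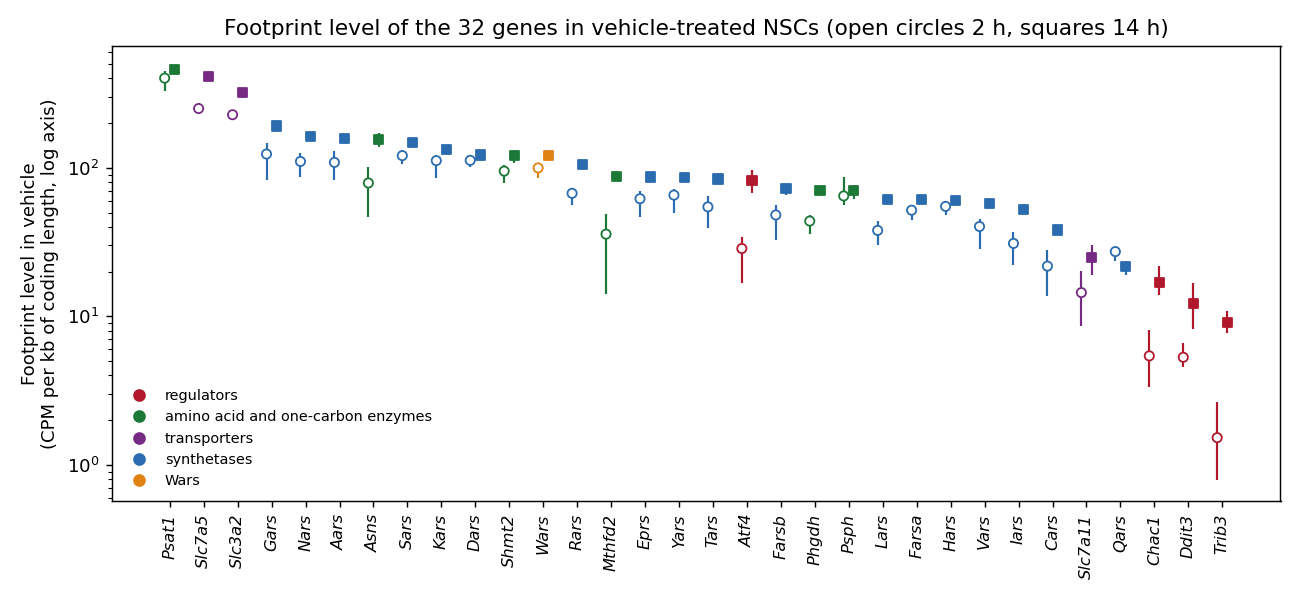
Footprint level with vehicle of the 32 genes, in CPM per kb of coding length on a log axis, at 2 h (open circles) and at 14 h (filled squares), with points at the mean and lines over the range of 4 libraries. Psat1, Slc7a5 and Slc3a2 were highest and Trib3 lowest at both times.

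After 2 h of IFN-β none of the 31 members passed the test, although most of them differed in 1 direction within every culture. A call means an adjusted p under 0.05 in the quasi-likelihood test of edgeR, after the method of Benjamini and Hochberg over all 12104 genes tested. Of all genes 7.25% were called, 5.25% higher and 2.01% lower. Of the 31 members 4 had an unadjusted p under 0.05 (Atf4, Slc7a5, Slc3a2 and Rars), and DESeq2 called 1 higher (Atf4) and 1 lower (Slc3a2). The log2 fold change was positive for 24 members and negative for 7, with a median of 0.13, against a median of -0.02 over all genes.

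Within cultures, 17 members were higher with IFN-β in all 4 cultures and 5 were lower in all 4, together 71.0% of the 31, where 43.3% of all genes went 1 way in all 4 cultures (21.4% higher). The members also had more counts per library, with a median of 925.5 against 240 over all genes. The 2 shares were not compared at matched counts. With the culture as a block in the fit, 12 members were called higher and 5 lower, against 29.2% of all genes called (15.9% higher and 13.4% lower). The block removes the differences between cultures from the error, and culture 3 was far below the others for most members. Values are given below as CPM scaled by TMM, which assumes that most genes do not differ, in cultures 2, 3, 5 and 6, in that order.

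**Figure D2:**
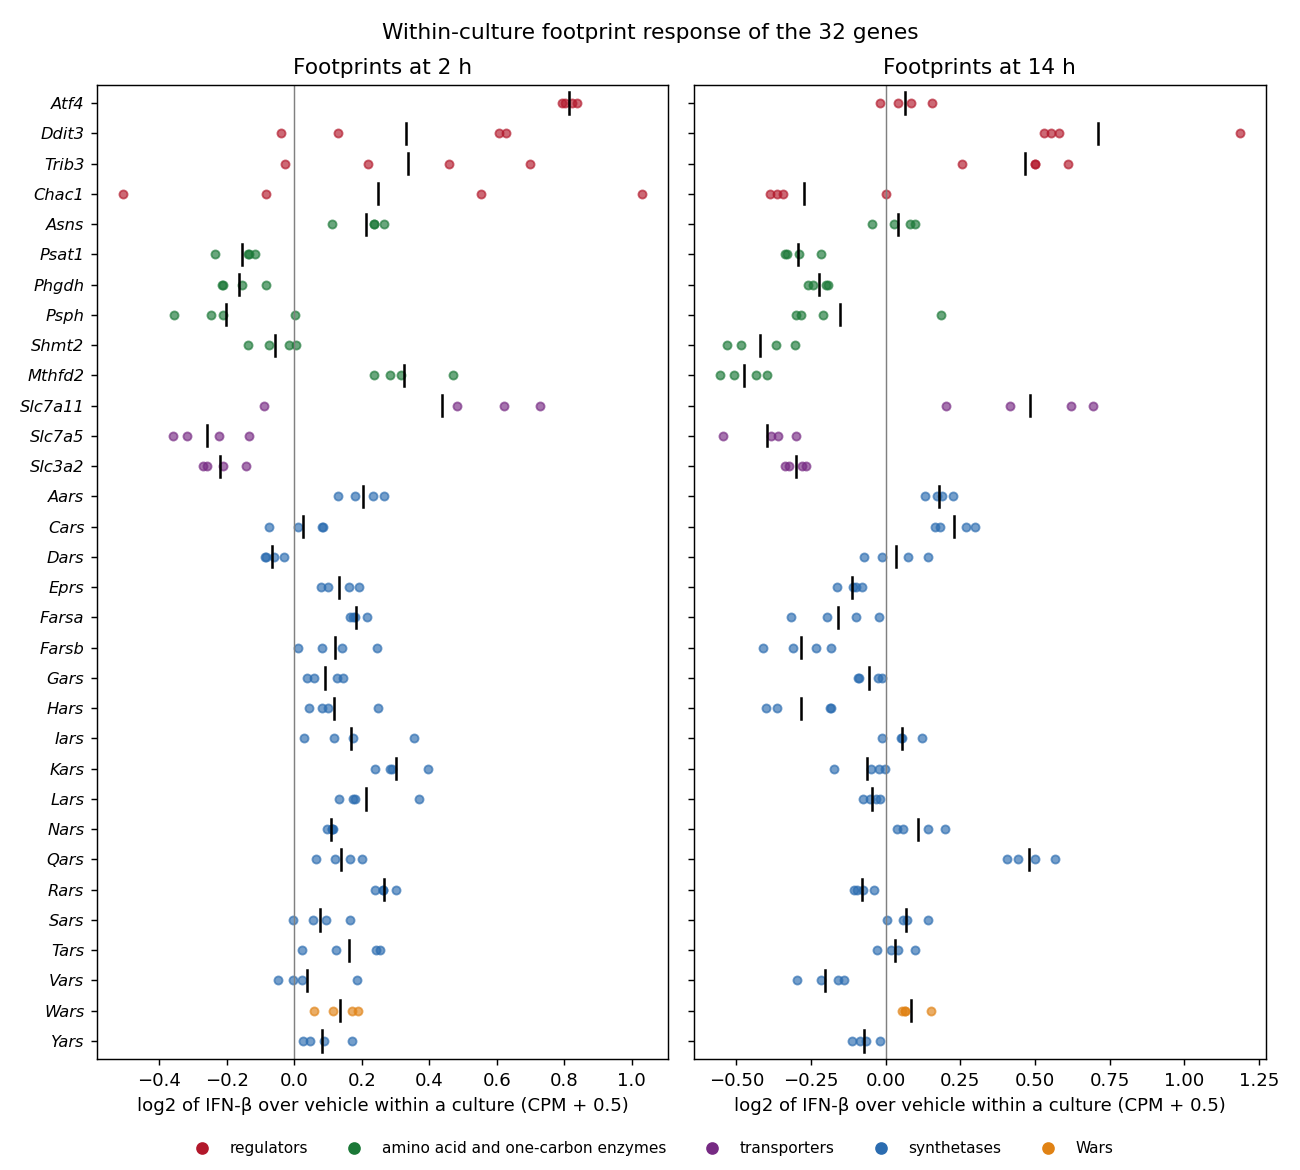
Within-culture log2 ratio of IFN-β over vehicle, in CPM plus 0.5, for the 32 genes at 2 h (left) and 14 h (right), with 1 point per culture and black bars at the mean of 4. At 2 h the 4 points of Atf4 lie between 0.79 and 0.84, and at 14 h those of Qars lie between 0.41 and 0.57.

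Among the regulators, Atf4 had the largest fold change of the 31 at 2 h. It read 36.0, 17.7, 32.1 and 34.1 CPM with vehicle and 64.1, 32, 56.0 and 59.8 CPM with IFN-β. Each culture was higher with IFN-β, by 0.79 to 0.84 on the log2 scale, yet the groups overlapped because culture 3 with IFN-β was below 3 of the vehicle libraries. The log2 fold change was 0.82 ± 0.26 (SE, adjusted p = 0.109), and with the culture block 0.82 ± 0.07 (adjusted p = 3.15e-10). Without the IFN-β library of culture 3 Atf4 passed the test (log2 fold change 1.00, adjusted p = 0.0213).

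Ddit3, the pro-apoptotic factor CHOP, had a log2 fold change of 0.39 ± 0.21 (adjusted p = 0.409) at 2.31 to 3.99 CPM. Trib3 had one of 0.47 ± 0.47 (adjusted p = 0.739), and Chac1, an enzyme that degrades glutathione, one of 0.42 ± 0.42 (adjusted p = 0.742). None of these 3 genes was called at 2 h with or without the block, and their low counts (a mean of 14.5 reads per library for Trib3) limit the precision.

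**Figure D3:**
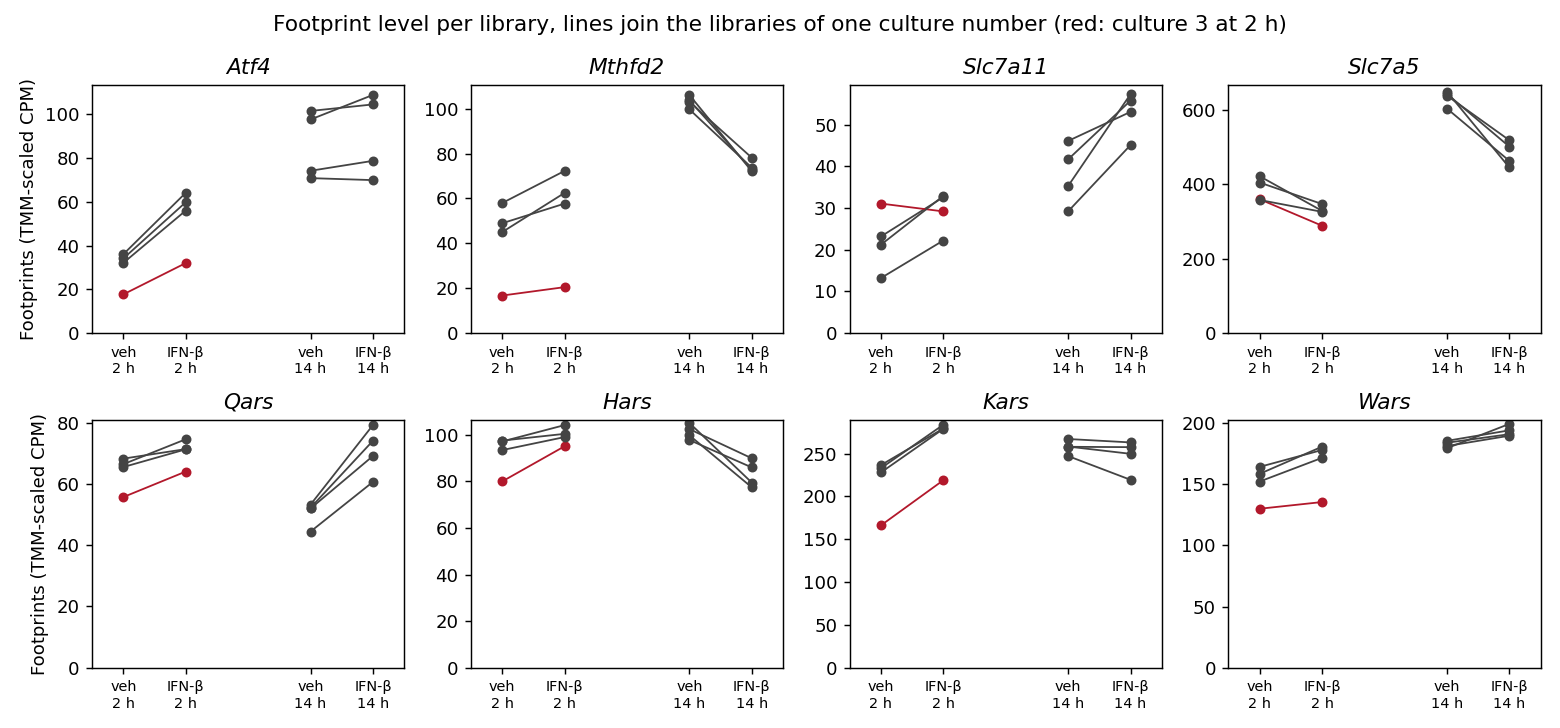
Footprints of 8 members in TMM-scaled CPM in each library, with lines joining the vehicle and IFN-β libraries of a culture number and culture 3 at 2 h in red. Culture 3 is lowest at 2 h for Atf4, Mthfd2, Kars and Wars, and Qars is higher with IFN-β in each culture at both times.

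The enzymes and transporters did not go 1 way at 2 h. Slc3a2, the common heavy chain of amino acid exchangers, read 398, 397, 373 and 377 CPM with vehicle and 330, 332, 323 and 341 CPM with IFN-β. Slc7a5 read 421, 359, 357 and 404 CPM with vehicle and 328, 288, 325 and 346 CPM with IFN-β. For both genes the 4 libraries with IFN-β lay below all 4 with vehicle, and they were the only members without overlap between the groups (2 of 31, 6.45%, against 12.9% of all genes, 7.77% higher and 5.14% lower).

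The log2 fold change of Slc3a2 was -0.22 ± 0.07 (adjusted p = 0.0978) and that of Slc7a5 -0.26 ± 0.09 (adjusted p = 0.159). Slc7a11, the cystine and glutamate exchanger, instead had a positive value of 0.40 ± 0.24 (adjusted p = 0.474), with 3 of 4 cultures higher and culture 3 slightly lower. With the block Slc7a5 (adjusted p = 4.79e-05) and Slc3a2 (adjusted p = 1.69e-04) were called lower and Slc7a11 (adjusted p = 0.00245) higher.

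With the block the 3 genes of serine synthesis from glycolysis (Phgdh, Psat1 and Psph) were called lower, and Asns and Mthfd2 were called higher. Asns makes asparagine, and Mthfd2 is the mitochondrial dehydrogenase that works on one-carbon units. Mthfd2 read 57.9, 16.7, 48.9 and 45.0 CPM with vehicle and 72.3, 20.5, 57.7 and 62.5 CPM with IFN-β. Each culture was higher by 0.23 to 0.47 on the log2 scale, while culture 3 was below the other 3 in both groups, and without the block the log2 fold change was 0.34 ± 0.42 (adjusted p = 0.803). Shmt2, the mitochondrial enzyme that moves a carbon from serine to folate, was called in neither fit (-0.05 ± 0.13).

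The synthetases differed by small amounts at 2 h. Of the 18, 17 had a positive log2 fold change (15 when libraries were scaled by total counts alone), the median was 0.12, and 14 were higher with IFN-β in all 4 cultures. Dars, the aspartyl-tRNA synthetase, was lower in all 4. The summed footprints of the 18 genes were 2801 ± 434 CPM with vehicle and 3079 ± 434 CPM with IFN-β (SD, n = 4). In cultures 2, 3, 5 and 6 the sum was 3153, 2166, 2934 and 2950 CPM with vehicle and 3387, 2436, 3249.6 and 3245 CPM with IFN-β. It was higher with IFN-β in each culture, and culture 3 was lowest in both groups, which overlapped.

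Kars, the lysyl-tRNA synthetase, had the largest fold change among them. It read 233, 166, 237 and 228 CPM with vehicle and 284, 219, 279 and 279 CPM with IFN-β, higher in each culture by 0.24 to 0.40 on the log2 scale. Its log2 fold change was 0.30 ± 0.13 (adjusted p = 0.300), and 0.30 ± 0.05 with the block (adjusted p = 7.31e-06). Rars, the arginyl-tRNA synthetase, had 0.27 ± 0.12 (adjusted p = 0.275) and passed with the block (adjusted p = 9.05e-05).

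The block called 8 synthetases higher and none lower, where it called 15.9% of all genes higher and 13.4% lower. The 8 were Aars, Eprs, Farsa, Iars, Kars, Lars, Rars and Tars. These charge alanine, glutamate with proline, phenylalanine (alpha subunit), isoleucine, lysine, leucine, arginine and threonine. When both libraries of culture 3 were left out of the fit without a block, 3 members were called higher (Atf4, Kars and Rars) and 2 lower (Slc7a5 and Slc3a2), where 14.1% of all genes were called in that fit, a check chosen after seeing the data.

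Culture 3 at 2 h carried less of nearly all of these genes with either treatment. It was below the other 3 cultures in both the vehicle and the IFN-β group for 26 of the 31 members (83.9%), including 18 of 18 synthetases, where this held for 28.6% of all genes tested. Only Psph, the phosphatase that ends serine synthesis, was above the others in both (58.5 and 45.6 CPM in culture 3). No transporter gene was below in both groups.

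The same culture had 114 CPM of Gfap, an intermediate filament of astrocytes and of vSVZ stem cells, with vehicle and 465 CPM with IFN-β. The other cultures had 0.679 to 4.87 CPM and 45.7 to 75.2 CPM. Footprints of Nes, the progenitor filament nestin, were 1665 and 1684 CPM in culture 3 and 2497 to 3512 CPM in the others. These values moved with the members' levels, and their part in them was not tested.

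**Figure D4:**
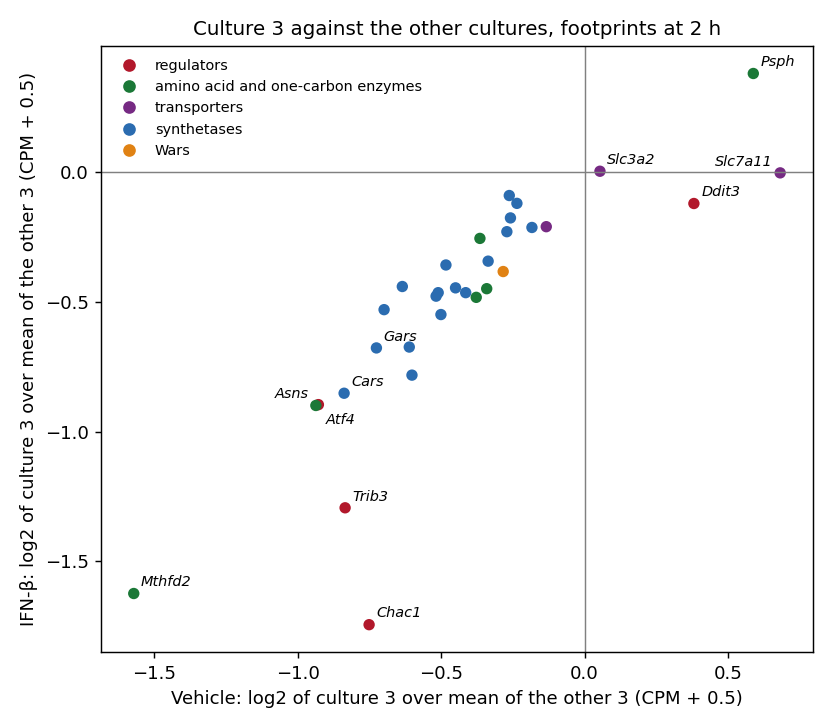
Log2 of the footprint CPM plus 0.5 of culture 3 over the mean of the other 3 cultures at 2 h, with vehicle on the horizontal and IFN-β on the vertical axis, 1 point per gene and colours by role. Most of the 32 genes lie below 0 on both axes, with Mthfd2 among the lowest and Psph above 0 on both.

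After 14 h of IFN-β 13 of the 31 members passed the test, 5 higher and 8 lower, which is 41.9% of them, where 52.5% of all 12113 genes tested were called (26.2% higher and 26.3% lower). The higher genes were Trib3, Slc7a11, Aars, Cars and Qars, and the lower ones Psat1, Phgdh, Shmt2, Mthfd2, Slc7a5, Slc3a2, Farsb and Hars. Their changes were small, with log2 fold changes of the 31 between -0.48 and 0.71 and a median of -0.05, against a median of 0.00 over all genes. The 2 groups did not overlap for 11 members (35.5%, against 46.2% of all genes), 3 higher and 8 lower. Within cultures 8 members were higher in all 4 and 16 lower in all 4 (77.4%), against 66.7% of all genes (33.5% and 33.2%). Here too the members had more counts, with a median of 1377 against 253. The block called 7 higher and 13 lower, together 64.5%, against 62.8% of all genes. Values are given below for cultures 1 to 4, as TMM-scaled CPM. The assumption of TMM that most genes do not differ is less secure here, with 52.5% of all genes called. The paper reports a strong fall of heavy polysomes and of protein synthesis after long IFN-β exposure. CPM are shares of a library, so a change in the total of footprints per cell would not show in them.

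Atf4 itself read 102, 97.6, 74.2 and 70.8 CPM with vehicle and 105, 109, 78.7 and 69.9 CPM with IFN-β at 14 h. The groups overlapped throughout, and the log2 fold change was 0.06 ± 0.15 (adjusted p = 0.754). Its 95% interval ran from -0.23 to 0.35.

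Trib3 rose by 0.47 ± 0.17 on the log2 scale (adjusted p = 0.0316). It read 9.92, 11.6, 8.60 and 8.25 CPM with vehicle and 15.4, 16.7, 10.4 and 11.9 CPM with IFN-β. Each culture was higher with IFN-β, but the groups overlapped, and the call was lost without the IFN-β library of culture 1 (adjusted p = 0.0644) or 2 (adjusted p = 0.124) and without the vehicle library of culture 3 (adjusted p = 0.0800) or 4 (adjusted p = 0.0864). Ddit3 read 6.79, 8.49, 4.11 and 5.18 CPM with vehicle and 16.1, 12.9, 6.16 and 7.84 CPM with IFN-β. It was higher in each culture, with a log2 fold change of 0.71 ± 0.29 (adjusted p = 0.0536, and 1.26e-04 with the block). Chac1 had a log2 fold change of -0.32 ± 0.17 (adjusted p = 0.127, and 0.0204 with the block), so that the regulators differed in sign.

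Of the 6 enzymes of serine, asparagine and one-carbon metabolism 4 fell at 14 h (66.7%, against 26.3% of all genes called lower). Each of the 4 was without overlap between the groups, as were 23.7% of all genes in the lower direction. Mthfd2 had the largest fall, from 99.7, 103, 106 and 104 CPM with vehicle to 73.7, 78.1, 72.1 and 72.9 CPM with IFN-β, and its log2 fold change was -0.48 ± 0.05 (adjusted p = 7.62e-06). Shmt2 read 164, 189, 189 and 193 CPM with vehicle and 133, 131, 135 and 150 CPM with IFN-β, with a log2 fold change of -0.42 ± 0.07 (adjusted p = 1.6e-04).

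Psat1 read 506, 558, 555 and 522 CPM with vehicle and 414, 441, 442 and 449 CPM with IFN-β, with a log2 fold change of -0.29 ± 0.05 (adjusted p = 4.81e-04). Phgdh, the first enzyme of serine synthesis, fell by 0.22 on the log2 scale (adjusted p = 0.00375). Psph had -0.18 ± 0.08 and passed only with the block (adjusted p = 0.0169). Asns was level, at 231 to 287 CPM with vehicle and 244 to 291 CPM with IFN-β (log2 fold change 0.04 ± 0.07). The 6 enzymes together went from 1247 ± 46.1 to 1058 ± 13.3 CPM.

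The 3 transporter genes were all called at 14 h, in opposite directions, where 52.5% of all genes were called. Slc7a5 fell from 637, 642, 648 and 603 CPM to 518, 500.5, 444 and 462 CPM, with a log2 fold change of -0.40 ± 0.06 (adjusted p = 9.01e-05). Slc3a2 fell from 501, 577, 531 and 562 CPM to 412, 457, 425 and 467 CPM, with a log2 fold change of -0.30 ± 0.06 (adjusted p = 0.00117). In both genes each IFN-β library lay below all vehicle libraries, at 14 h as at 2 h.

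Slc7a11 read 35.3, 41.6, 29.2 and 46.1 CPM with vehicle and 57.3, 55.7, 45.1 and 53.0 CPM with IFN-β. It was higher in each culture, while 1 IFN-β library lay below the highest vehicle library, and the log2 fold change was 0.45 ± 0.12 (adjusted p = 0.00872). Slc3a2 encodes the heavy chain that both Slc7a5 and Slc7a11 need at the cell surface, and these 2 light chains differed in sign.

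Among the 18 synthetases at 14 h, 3 were higher (16.7%, against 26.2% of all genes) and 2 lower (11.1%, against 26.3%), and 13 did not pass. The summed footprints of the 18 were 3898 ± 75.8 CPM with vehicle and 3884 ± 74.8 CPM with IFN-β. Qars, which charges glutamine, had the largest change. It read 44.4, 52.0, 53.2 and 52.2 CPM with vehicle and 60.6, 69.1, 79.2 and 74.1 CPM with IFN-β. All IFN-β libraries were above all vehicle libraries, and the log2 fold change was 0.50 ± 0.08 (adjusted p = 2.5e-04).

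Cars, for cysteine, read 93.1, 102, 91.0 and 94.8 CPM with vehicle and 112, 114, 112 and 108 CPM with IFN-β (log2 fold change 0.23 ± 0.05, adjusted p = 0.00357). Aars, for alanine, had the smallest change among those called higher, 0.18 ± 0.05 (adjusted p = 0.00636). Neither gene overlapped between the groups.

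Hars, for histidine, fell from 99.7, 105, 102 and 97.7 CPM to 77.4, 79.4, 89.9 and 85.9 CPM, with a log2 fold change of -0.28 ± 0.06 (adjusted p = 0.00182). Farsb, the beta subunit for phenylalanine, fell by 0.28 on the log2 scale (adjusted p = 0.00325), from 123 to 145 CPM with vehicle to 104 to 122 CPM with IFN-β. The alpha subunit, Farsa, had -0.14 ± 0.07 (adjusted p = 0.140) and was called lower with the block (adjusted p = 0.0236). The block also called Eprs and Vars (for valine) lower and Nars (for asparagine) higher.

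The 4 genes Dars, Gars, Sars (for serine) and Yars (for tyrosine) were called at neither time, with or without the block. At 14 h the 7 synthetases of the multi-synthetase complex had a median log2 fold change of -0.05 with 1 called higher (Qars). The 11 outside it had a median of -0.05 with 2 called higher and 2 lower. The shares over all genes were 26.2% higher and 26.3% lower.

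Wars was not called at 14 h, although the groups did not overlap. It read 184, 180, 186 and 181 CPM with vehicle and 191, 199, 194 and 190 CPM with IFN-β. The log2 fold change was 0.08 ± 0.05 (adjusted p = 0.147, and 0.0579 with the block). At 2 h it read 164, 130, 152 and 159 CPM with vehicle and 178, 136, 172 and 181 CPM with IFN-β, higher in each culture, with a log2 fold change of 0.14 ± 0.11 (adjusted p = 0.665, and 0.0360 with the block). Over all alternatives its log2 fold change stayed between 0.07 and 0.11 at 14 h and between 0.07 and 0.23 at 2 h.

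The response at 14 h was set against that at 2 h in 1 model of the 16 footprint libraries with an interaction of treatment and time, a comparison in which 30.9% of 12508 genes were called. Of the 31 members 2 were called. Hars had a difference of -0.38 ± 0.10 (adjusted p = 0.0084), and it was positive in each culture at 2 h and negative in each at 14 h. Qars had one of 0.36 ± 0.13 (adjusted p = 0.0405), with a larger positive change at 14 h, and this call was lost without a filter on low counts (adjusted p = 0.0799). It was kept when the 2 h libraries of culture 5 with IFN-β or of culture 3 with vehicle were left out, or the 14 h libraries of culture 1 with IFN-β or of culture 3 with vehicle, and was lost without any 1 of the other 12 (adjusted p = 0.0502 to 0.0787). Hars kept its call without any 1 of the 16.

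Atf4 had a difference of -0.74 ± 0.32 (adjusted p = 0.0917), which passed with the block (adjusted p = 8.99e-09). With the block 2 members were called higher at 14 h than at 2 h and 15 lower, 54.8% of the 31, where 55.5% of all genes were called (28% higher and 27.5% lower). Without the IFN-β library of culture 3 at 2 h, and with no block, 10 members were called lower and none higher, where 39.5% of all genes were called in that fit (19.7% higher and 19.8% lower).

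Read side by side, the blocked fits called Aars and Slc7a11 higher at both times, and Phgdh, Psat1, Psph, Slc3a2 and Slc7a5 lower at both. Eprs, Farsa and Mthfd2 were called higher at 2 h and lower at 14 h, and none was called lower at 2 h and higher at 14 h. Of all genes the blocked fits called 15.9% higher and 13.4% lower at 2 h, and 31.8% and 31% at 14 h. The shares of all genes called at both times were not counted. For Mthfd2 the difference between the times was -0.81 ± 0.44 (adjusted p = 0.172, and 3.05e-09 with the block).

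Members with the CARE core in the windows shown above and those without it had different medians. At 14 h the 9 with it had a median log2 fold change of 0.04, with 3 called higher and none lower. The 15 without it had a median of -0.14, with 1 called higher and 6 lower. Of all genes 26.2% were called higher and 26.3% lower at 14 h. At 2 h the medians were 0.20 and 0.11. These are descriptions of small groups, and the difference was not tested.

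In total RNA the members were barely measured. The 32 genes took 0.386% to 0.534% of the counts of a footprint library at 2 h and 0.599% to 0.690% at 14 h, but 0.0171% to 0.0668% and 0.0300% to 0.0856% of a total RNA library. The median over the members of the median count per library was 21.5 in total RNA at 2 h and 7.00 at 14 h, against 996 and 1393 in footprints. Ddit3, Slc7a11 and Lars held 70.6% and 76.3% of the members' total RNA counts. For 14 members a gene lies on the opposite strand, for 8 of them with overlapping exons, and the strand setting of the counting is not given in the sources used here.

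At least 10 counts in at least 4 libraries were reached by 20 of the 31 members at 2 h and by 14 at 14 h. No member was called in total RNA by edgeR at either time, with 1 at each time at an unadjusted p under 0.05, where 0.799% and 6.3% of all genes were called. The vehicle libraries at 2 h had 3 to 29 total RNA counts of Atf4 and the IFN-β libraries 13 to 77. No library at 14 h had more than 12, and Atf4 was not tested there. At 2 h the regulators tested in total RNA, Atf4 and Ddit3, had log2 fold changes from -0.01 to 0.89, and neither was called. At this depth a change in Atf4 RNA could not be told from a change in its translation.

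Translational efficiency (TE) is the footprint level relative to the total RNA level, and its change was tested as the interaction of library kind and treatment, with calls at an adjusted p under 0.1. No member was called at 2 h (2 at an unadjusted p under 0.05), where 0.815% of all genes were called by edgeR. At 14 h 2 of the 31 were called lower (6.45%), where 8.45% of all genes were called in either direction. In the lower direction the share of all genes was 3.96%. The members called were Psph (log2 change -1.14, adjusted p = 0.0635), and Nars (log2 change -2.48, adjusted p = 0.0470).

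The Nars value rested on 0 to 1 total RNA counts per vehicle library and 2 to 7 per IFN-β library, and that of Psph on 1 to 11 and 9 to 22. Psph lost its call with the replicate block (adjusted p = 0.102). It also lost it without culture 1 or 2 with IFN-β or culture 2 or 3 with vehicle, and Nars without culture 3 with IFN-β or culture 2 with vehicle, with both kinds of library left out (adjusted p = 0.114 to 0.235 and 0.175). Both lost it with the culture as a block over both kinds of library (adjusted p = 0.161 and 0.109).

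Genes related to the members are given by their counts, from lists made for this description with earlier results of these data known. Their shares beside those of all genes are therefore descriptions. Of 27 other ATF4 targets 26 were tested in footprints. At 2 h Atf3, Ppp1r15a and Cebpb were called higher (11.5%, against 5.25% of all genes) and Sesn2 lower. Atf3, a stress-induced repressor, read 1.89, 4.45, 2.37 and 2.17 CPM with vehicle and 13.6, 24.3, 14.6 and 11 CPM with IFN-β (log2 fold change 2.55 ± 0.33). At 14 h 12 of the 26 were called higher (46.2%, against 26.2% of all genes) and 5 lower (19.2%, against 26.3%), with Cebpb at 0.88 ± 0.10 and Nupr1 at 0.86 ± 0.15, and the median was 0.16.

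Among 8 other genes of glycine and one-carbon metabolism, 5 were called lower at 14 h (62.5%, against 26.3% of all genes) and 1 higher, and the median of their log2 fold changes was -0.46. At 2 h none was called (none with an unadjusted p under 0.05). Shmt1, the cytosolic counterpart of Shmt2, had the largest fall. It read 70.7, 72.5, 84.0 and 77.5 CPM with vehicle and 23.5, 21.1, 25.5 and 25.8 CPM with IFN-β (log2 fold change -1.66 ± 0.08, adjusted p = 2.85e-09). At 2 h it was level, with a log2 fold change of 0.00 (SE 0.29), and its response differed between the times (-1.65 ± 0.32).

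Of the 17 mitochondrial synthetases 7 were called lower at 14 h (41.2%, against 26.3% of all genes) and 1 higher (5.88%, against 26.2%), with Mars2 at -0.90 ± 0.09, and none was called at 2 h. Mars, the cytosolic methionyl-tRNA synthetase, which is not one of the 18, had -0.05 ± 0.05 (adjusted p = 0.405), while of the 3 scaffold proteins of the multi-synthetase complex Aimp2 (-0.42 ± 0.07) and Eef1e1 (-0.58 ± 0.06) were called lower. Upstream, Eif2ak2 rose from 24.7 to 31.8 CPM with vehicle to 129 to 175 CPM with IFN-β at 2 h, a log2 fold change of 2.51 ± 0.13, and at 14 h by 3.69 ± 0.06. Eif2ak3, the kinase PERK of the endoplasmic reticulum, had 0.12 ± 0.10 and 0.04 ± 0.07, and neither passed the test. Of the 5 genes for eIF2-alpha and its kinases only Eif2ak2 was called higher, and Eif2s1, which encodes eIF2-alpha, fell at 14 h (-0.42 ± 0.06).

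**Figure D5:**
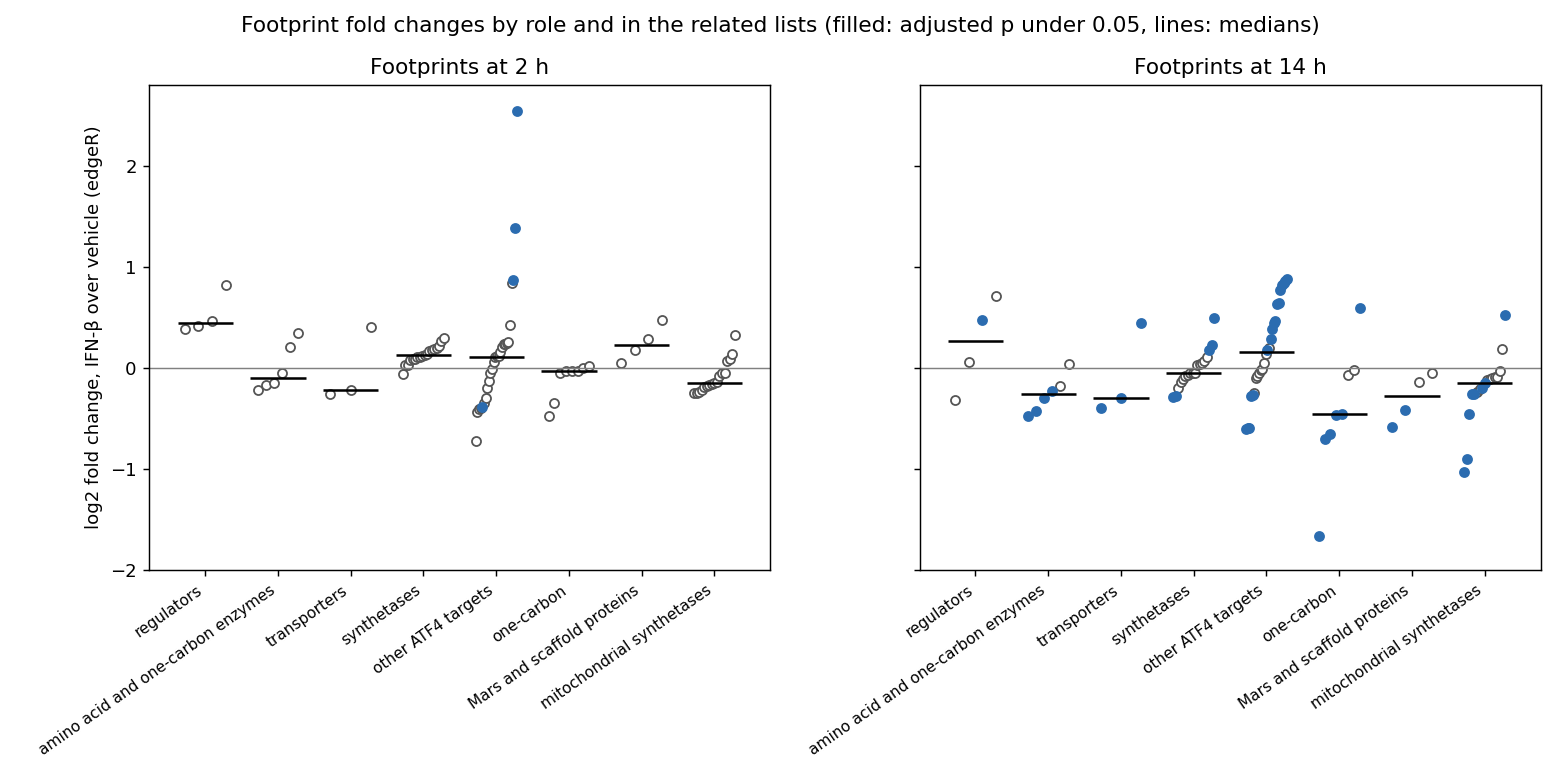
Footprint log2 fold change of IFN-β over vehicle at 2 h (left) and 14 h (right), 1 point per gene, for the 4 roles among the members and for 4 related lists, with black lines at the medians and filled points at an adjusted p under 0.05. The members lie between -0.26 and 0.82 at 2 h and between -0.48 and 0.71 at 14 h.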

How the data were processed

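The authors trimmed adaptors, mapped the reads with bowtie to the mouse transcriptome of build mm10, discarded duplicate reads and used SummarizeOverlaps to count the rest per gene (the submitters' processing notes name Trim Galore 0.4.4 and Bowtie 0.12.7). The deposited values are raw counts, in the coding sequence for footprints and in the whole gene body for total RNA. Removing duplicates without molecular identifiers compresses high counts of short regions, and its effect was not tested.

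Genes that reached 10 counts in 4 or more libraries were tested with edgeR 4.0.16 (quasi-likelihood, two-sided, TMM scaling) in R 4.3.3, within each time, without a block. Alternatives used DESeq2 1.42.0, other scalings and filters, a replicate block and single libraries left out. Deviations of same-numbered footprint libraries from their group means correlated at 0.33 to 0.81 at 2 h and 0.19 to 0.42 at 14 h. These numbers were therefore taken to pair the cultures. In total RNA, from the same lysates, the correlations ran from -0.48 to 0.39 at 2 h and from -0.01 to 0.26 at 14 h. The pairing did not show clearly there, which does not mean that the numbers name other cultures. CPM use TMM-scaled library sizes over the genes tested, and within-culture ratios add 0.5 CPM.

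The members and lists were chosen with earlier results of these data known. All 32 members were followed; beyond them, the genes of the lists with the 3 largest positive and negative footprint changes at 14 h at a mean of at least 50 counts, Mars, Eif2ak2 and Eif2ak3 were named, and a few others after their values were seen. A gene and a promoter stretch that these rules would name are not reported here. Tests were checked on simulated data. Figures used Python 3.11.15 with numpy 2.4.6, pandas 2.3.3 and matplotlib 3.10.9.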

Additional observations from a re-analysis of the deposited data

Results flagged for a closer look

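In each group of 4 footprint libraries the highest or lowest value of a member was compared with its nearest neighbour by Dixon's criterion, which chance passes in about 1 group of 20. Of 128 groups 11 passed, 9 of them at 2 h, and all 9 were culture 3. Culture 3 was high for Psph with vehicle (58.5 CPM). It was low with vehicle for Kars (166 CPM), Vars (112 CPM) and Yars (91.2 CPM), and low with IFN-β for Farsb (72.5 CPM), Iars (91.1 CPM), Kars (219 CPM), Tars (86.5 CPM) and Vars (127 CPM). At 14 h culture 1 with vehicle was low for Shmt2 (164 CPM) and for Qars (44.4 CPM).

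The responses at 14 h and at 2 h differed for Hars (-0.38 on the log2 scale) and for Qars (0.36) by the interaction test of edgeR.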

How the results depend on the processing

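A change of sign was counted only where the value was called in either fit, and no member changed sign in this way under the alternatives run. In footprints at 2 h, where no member was called, DESeq2 called 1 higher and 1 lower, total counts alone 1 lower, the replicate block 12 higher and 5 lower, and the fit without both libraries of culture 3 (chosen after seeing the data) 3 higher and 2 lower, with 14.1% of all genes called in that fit. Leaving out 1 library gave 0 to 1 higher and 0 lower, and leaving out a culture 0 to 3 and 0 to 2. At 14 h the block called 13 lower instead of 8, and leaving out 1 library gave 4 to 6 higher and 8 to 10 lower, a culture 4 to 5 and 8 to 9. For the difference between the times DESeq2 called 2 lower, no filter on low counts 0 higher, the block 2 higher and 15 lower, and leaving out 1 library gave 0 to 1 higher and 1 to 10 lower. For TE at 14 h DESeq2 and the replicate block called 1 lower, and a mean of at least 50 counts and the culture block 0, with 0 to 1 higher and 0 to 3 lower when 1 library was left out. Total RNA and TE at 2 h gave 0 members in every alternative. The causes of these differences were not tested. Over all genes the block called 3538 instead of 878 at 2 h and 6944 instead of 3867 for the difference between the times, and DESeq2 called 250 instead of 115 for TE and 169 instead of 93 in total RNA at 2 h. Depth limits total RNA and TE, where most members had few reads.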
